A study of Mus musculus with 6 samples.

Results

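The T cells of EMT6 tumors were 214 of the 14940 kept cells of the tumor libraries and of 43810 kept cells in all libraries. A cell was counted as a T cell when it held at least 2 UMIs (counted molecules) of Cd3e, Cd3g and Cd3d together, no UMI of Cd79a or C1qa and at most 1 UMI of Krt8 and Krt18. Barcodes below 300 genes or 500 UMIs, or above 10% mitochondrial UMIs, had been removed. The tumor library labelled WT gave 74 such cells and the tumor library labelled deficient gave 140. The same gate in the spleen gave 3435 and 4076 cells, which served as the comparison. EMT6 is a mammary carcinoma cell line of BALB/c mice, and all mice carried these tumors. Mice were either labelled Cysltr1 KO (deficient for a cysteinyl leukotriene receptor) or BALB/c WT. Spleen and tumor cells were selected for CD45, and each library was 1 pool of 3 mice, so there was 1 library per tissue and genotype. No difference below therefore has a replicate check, no test was run, and every 95% interval (exact Poisson for UMI sums, Clopper-Pearson for shares of cells) covers counting error only.

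T cells recognise antigen through a receptor that signals with the CD3 chains, and most carry CD8 (killer cells) or CD4 (helper cells, among them FOXP3-expressing regulatory cells). Naive T cells circulate through spleen and lymph nodes with egress receptors, whereas T cells in tissue lose these and carry tissue homing receptors, activation receptors such as ICOS and 4-1BB, and inhibitory receptors such as PD-1. A further lineage with a γδ receptor seeds tissues, and part of it makes interleukin-17A, a cytokine that recruits neutrophils.

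The labels were first checked against Cysltr1 (chromosome X, 106574346 to 106603679, minus strand, mm10). Cysltr1 was at 2.36 CPM (UMIs scaled to a common library total) in spleen T cells labelled WT and at 24.9 CPM in those labelled deficient, and at 3.92 CPM (1 UMI) and 24.3 CPM (10 UMIs in 8 cells) in the tumor T cells. The transcript was thus higher in the libraries labelled deficient, against the labels, which do not say which part of the gene was deleted, so every direction between genotypes below is as labelled only. Between 43 and 111 barcodes were shared by the kept cells of any pair of libraries, 71 of them between the tumor libraries. Spleen T cells had medians of 3330 and 4139 UMIs per cell (labelled WT first, as in all pairs below), and tumor T cells 2383.5 and 2368. In the spleen, 461 (13.4%) and 140 (3.43%) of the gated cells drew over 2% of their UMIs from the neutrophil genes S100a8 and S100a9. The 461 cells had a median of 8791 UMIs and a mean of 70.8 UMIs of the neutrophil gene Retnlg, against 0.0851 in the other gated cells of that library. The tumors held 0 and 2 such cells, so values without these S100-rich cells are given beside the results that they move.

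T cells made up 0.861% (0.676 to 1.08) of the kept tumor cells labelled WT and 2.21% (1.86 to 2.60) of those labelled deficient. With every cell drawn to 1000 UMIs before gating, the shares were 0.769% (53 cells) and 2.45% (127 cells). The share was higher in the library labelled deficient at both depths. Around the threshold, 12 and 17 gated tumor cells held exactly 2 Cd3 UMIs, and 33.3% and 29.4% of them had a UMI of a receptor constant gene. Of the 26 and 34 cells left out with exactly 1 Cd3 UMI, 11.5% and 14.7% had one, against 51.6% and 65.9% of the cells with 3 or more. The C1qa term alone left out 26 and 82 tumor cells that met the Cd3 term, of which 46.2% and 62.2% had a receptor constant UMI.

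Over the defining markers of other cell types, tumor T cells held 1091 and 1137 CPM for the 8 NK cell markers, of which 3 and 2 were at 0 and Tyrobp and Fcer1g gave most of the sum. Of the rest, Klre1 was found in 9 and 7 cells, at 62.8 and 34.1 CPM against 0.772 and 1.11 CPM in the other tumor cells. Ncr1 (31.4 and 14.6 CPM) and Eomes (27.5 and 26.8 CPM) were also above the other tumor cells, whereas Klrb1c had 0 and 2 UMIs. The macrophage markers summed to 1413 and 1807 CPM, 45.4% and 61.0% of the level in the other tumor cells, and the neutrophil markers to 1001 and 1495 CPM, 37.5% and 44.1%. Monocyte markers summed to 1240 and 696 CPM, 416% and 203% of the level in the other tumor cells. Plac8 (659 and 373 CPM), Ly6c2 (196 and 180 CPM) and Ms4a4c (184 and 77.9 CPM) gave most of that sum. Vcan was at 90.3 and 24.3 CPM against 87.7 and 79.7 CPM in the other tumor cells. Fcgr1 was at 98.1 and 36.5 CPM against 55.6 and 72.3 CPM, and Chil3 had 3 and 2 UMIs. Labelled deficient, Vcan and Fcgr1 were thus below the other tumor cells. B cell markers summed to 31.4 and 31.7 CPM, fibroblast markers to 620 and 373 CPM, and carcinoma markers to 0 and 26.8 CPM. Dendritic cell markers summed to 298 and 665 CPM with 4 of 8 at 0 in each library, plasmacytoid markers to 377 and 416 CPM with all but Bst2 at 0, and markers of group 2 innate lymphoid cells to 353 and 733 CPM. Mast cell markers summed to 11.8 and 0 CPM, and erythroid markers were at 0 in both libraries. Markers of NK cells, monocytes, macrophages and neutrophils were thus present in the gated sums. Their part in the results below, those of the cytotoxic genes included, was not tested.

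Among tumor T cells, transcripts of Cd8a or Cd8b1, the chains of CD8, were found in 20 cells (27.0%, 17.4 to 38.6) labelled WT and 25 cells (17.9%, 11.9 to 25.2) labelled deficient, against 31.1% and 35.9% of spleen T cells. Cd4 was found in 12 (16.2%, 8.67 to 26.6) and 18 (12.9%, 7.80 to 19.6) tumor T cells, against 27.5% and 33.3% in the spleen. Foxp3, the master factor of regulatory T cells, was found in 9 (12.2%, 5.71 to 21.8) and 8 (5.71%, 2.50 to 10.9), against 8.18% and 8.56%. In the libraries labelled deficient the Cd8 and Cd4 shares lay below those of the spleen beyond counting error. In the libraries labelled WT their intervals overlapped those of the spleen, and the Foxp3 intervals included the spleen values in both genotypes. None of the 3 was found in 36 (48.6%) and 94 (67.1%) tumor T cells, against 38.5% and 29.3% in the spleen. Tumor T cells were shallower, and at 1000 UMIs per cell the Cd8 shares were 24.1% and 25.1% in spleen and 35.8% and 15.7% in tumor, so the order of the tissues turned in the libraries labelled WT. Cd4 at that depth was in 12.5% and 12.5% of spleen and 9.43% and 5.51% of tumor T cells, and Foxp3 in 5.49% and 4.21% of spleen and 1.89% and 5.51% of tumor T cells. In keratin-positive tumor cells, which should lack these genes and had medians of 16906 and 20383 UMIs, Cd8 was found in 0.23% and 0.17%, Cd4 in 0.10% and 0.22%, and Foxp3 in 0.37% and 0.56%. The subset shares were far above that background.

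**Figure D1:**
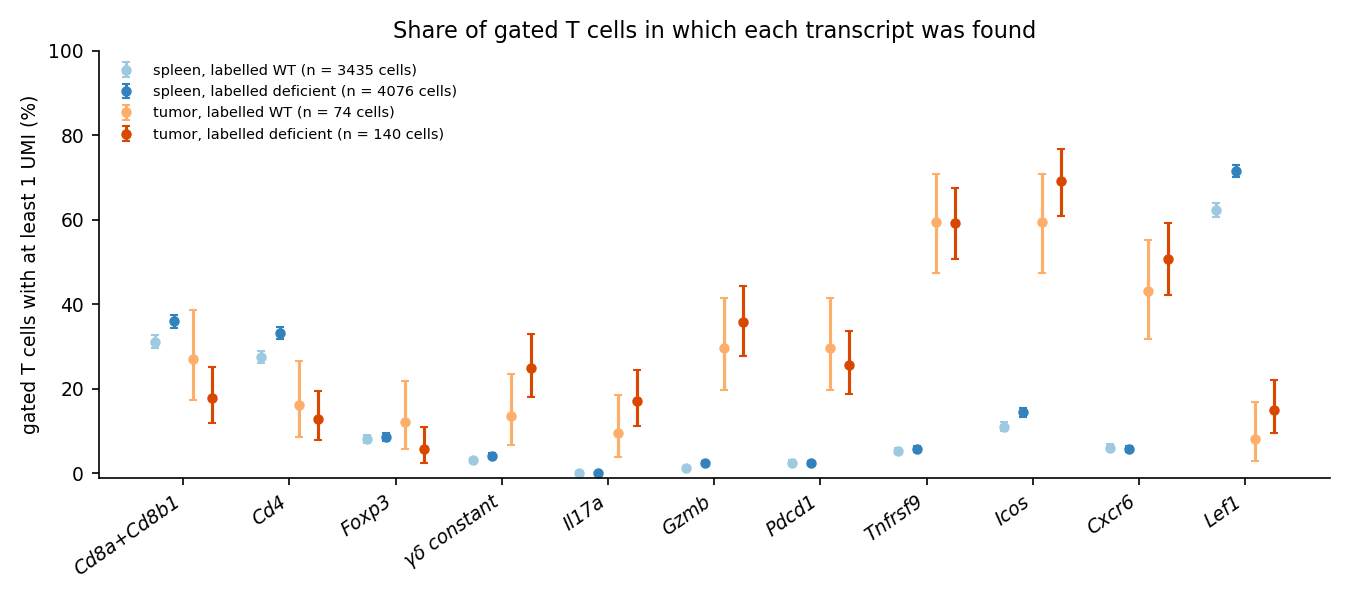
Percent of gated T cells with at least 1 UMI of each transcript (y axis) in the 4 libraries, with exact 95% binomial intervals. Tumor T cells sit above spleen T cells for Il17a, Gzmb, Pdcd1, Tnfrsf9, Icos and Cxcr6 and below them for Lef1 in both genotypes.

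Receptor transcripts were sparse. A constant gene of any receptor chain was found in 66.1% and 84.9% of spleen T cells and in 36 (48.6%) and 86 (61.4%) of tumor T cells, and a β-chain variable segment in 80.5% and 90.4% of spleen and 52.7% and 53.6% of tumor T cells. Constant genes of the αβ receptor (Trac, Trbc1, Trbc2) were found in 65.1% and 84.1% of spleen T cells and in 33 (44.6%) and 70 of the 74 and 140 tumor T cells. By contrast, a constant gene of the γ or δ chain (Trdc, Tcrg-C1, Tcrg-C2 or Tcrg-C4) was found in 3.09% and 4.22% of spleen T cells and in 10 (13.5%, 6.68 to 23.5) and 35 (25.0%, 18.1 to 33.0) of tumor T cells. Of these shares, that of the γδ constant genes alone was higher in tumor than in spleen, in both genotypes. At 1000 UMIs per cell it was 1.70% and 2.07% in spleen and 3.77% (2 of 53 cells) and 11.8% (15 of 127 cells) in tumor, and the keratin-positive tumor cells had 0.37% and 0.50%. At that depth the 2 cells labelled WT were too few to tell the tumor share from that of the spleen.

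The γδ-positive cells of the tumor libraries held different transcripts. A UMI of Trdv4 or Tcrg-V6, the variable segments of an invariant γδ receptor known from interleukin-17-producing γδ T cells, was found in 1 tumor T cell labelled WT and 19 labelled deficient, and in 4 and 14 spleen T cells. Trdv4 (chromosome 14, 54074905 to 54075515, plus strand, mm10) alone gave 0.262, 0.444, 3.92 and 282 CPM in spleen labelled WT, spleen labelled deficient, tumor labelled WT and tumor labelled deficient, the order kept in every list of 4 levels below. The tumor library labelled deficient stood apart from the other 3, with 116 UMIs in 19 cells. Of the γδ-constant-positive cells labelled WT, 10 of 10 held Nkg7, a cytotoxic granule protein, 7 held Prf1 (perforin), 4 held Cd8a and none held Il17a. Of the 35 labelled deficient, 7 held Nkg7, 2 Prf1, 2 Cd8a and 13 Il17a. γ-chain constant transcripts are also known from αβ T cells, so this class is defined by transcripts and not by a surface receptor. Cd163l1 (SCART1), a scavenger receptor known from interleukin-17-producing γδ T cells, was at 0, 0.79, 0 and 139 CPM and so was found in quantity only in the tumor library labelled deficient.

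Il17a (chromosome 1, 20730905 to 20734496, plus strand, mm10), the cytokine gene, was found in 1 and 6 spleen T cells (0.03% and 0.15%) and in 7 (9.46%, 3.89 to 18.5) and 24 (17.1%, 11.3 to 24.4) tumor T cells. Its level was 0.131, 1.73, 526 (441 to 623) and 784 (701 to 874) CPM. Both tumor libraries were far above both spleen libraries, by 8.86 and 8.17 on the log2 scale of CPM + 1. The 134 UMIs labelled WT came to 66.4% from 1 cell, and the ratio without each library's highest cell was 7.49 and, with 322 UMIs labelled deficient, 7.95. Members held 93.7% and 74.0% of all Il17a UMIs of the tumor libraries, none of the keratin-positive tumor cells labelled WT or deficient had one, and 0.08% of C1q-positive cells labelled deficient did. At 1000 UMIs per cell Il17a was found in 7.55% (4 of 53) and 15.0% (19 of 127) of tumor T cells.

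The Il17a-positive cells of the tumor libraries had like depth (medians of 2335 and 2401 UMIs). Cd4 was found in 5 of 7 cells labelled WT (71.4%, 29.0 to 96.3) and in 3 of 24 labelled deficient (12.5%, 2.66 to 32.4), intervals that overlap, and no difference between the libraries was tested. A γδ constant gene was found in 0 of 7, which allows a share of up to 42.9% with a UMI (3 of 7, the limit used for a count of 0), and in 13 of 24 (54.2%, 32.8 to 74.4), with Trdv4 in 10, Tcrg-V6 in 8 and Tcrg-V4 and Trgv2 in 6 each. Blk, a kinase of interleukin-17-producing γδ T cells, was in 0 of 7 and 12 of 24, Cd163l1 in 0 and 9, Il23r, the receptor of the cytokine that sustains such cells, in 0 and 9, Zbtb16 (PLZF) in 0 and 8, and Calca, a neuropeptide gene, in 0 and 12. These transcripts were found in the library labelled deficient and not in the other, where the same limit of 42.9% applies to each. Shared by both libraries were Icos in 7 of 7 and 23 of 24, Rora, a factor of type 17 cells, in 7 and 19, Cxcr6 in 6 and 17, and Dgat1, a triglyceride synthesis enzyme, in 6 and 23. Foxp3, Cd8a, Nkg7 and Ccl5 were found in none of the 7 or the 24 cells. The 67 tumor T cells labelled WT without Il17a held Icos in 37, Rora in 26, Cxcr6 in 26 and Dgat1 in 23. These transcripts were therefore not limited to Il17a-positive cells. Il17a-positive cells of both tumors thus held residency and costimulatory transcripts, and those labelled deficient held γδ transcripts in most cells.

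**Figure D2:**
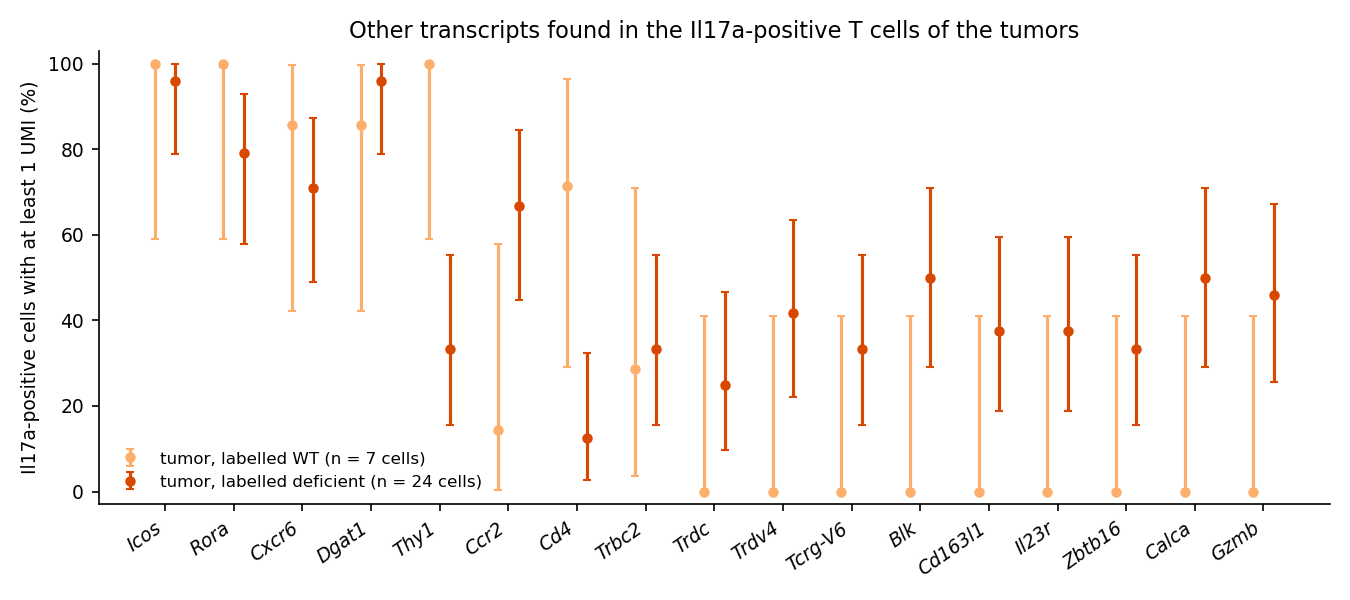
Percent of Il17a-positive tumor T cells with at least 1 UMI of each transcript (y axis), 7 cells labelled WT and 24 labelled deficient, with exact 95% binomial intervals. Icos, Rora, Cxcr6 and Dgat1 are high in both, Cd4 is higher among the 7 cells labelled WT, and the γδ segments, Blk, Cd163l1, Il23r, Zbtb16 and Calca were found only among the 24 labelled deficient, with intervals that overlap.

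Genes were then compared between tumor and spleen T cells within each genotype, which share no library. UMIs were summed per library, and a gene was called at 2-fold or more on log2(CPM + 1) where at least 20 UMIs were expected in the smaller sum. It also had to reach at least 0.5 of the level in the other cells of the library where it was higher, a guard against free RNA. Among 1837 genes in the libraries labelled WT, 272 (14.8%) were higher and 145 (7.89%) lower in tumor T cells, and among 3048 in those labelled deficient 363 (11.9%) were higher and 215 (7.05%) lower. In both genotypes, 156 of 1803 (8.65%) were higher and 81 (4.49%) lower. The median of all genes lay at 0.29 and 0.13, and with median-ratio scaling in place of CPM the splits turned to 140 higher and 290 lower, and 248 higher and 378 lower. Ratios are therefore read against those medians, and list counts below against the shares of all genes called higher or lower with CPM. With that scaling, list medians labelled WT moved from 0.44 to -0.05 for interferon-γ genes, from 0.48 to -0.01 for cell cycle genes, from 0.47 to -0.02 for MHC class I genes and from 0.13 to -0.35 for NF-κB genes, so these lists have no direction there. In the tumor sums 1 UMI was worth 3.92 and 2.43 CPM, and the intervals of tumor and spleen did not overlap for any gene named below as higher or lower in tumor.

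Granzymes were 4 of the 6 genes ranked highest above the spleen, beside Il17a and Arg1. These serine proteases are released by killer cells, and Gzmb to Gzmg lie side by side on chromosome 14 with near-identical stretches, so counts could be split among them and single members are uncertain. Of 50-base stretches of the transcripts, 21.5% of Gzmd, 19.1% of Gzme, 7.36% of Gzmf, 4.14% of Gzmc and 0.0% of Gzmb also occurred in another of them. Gzmc was at 0.524, 0.346, 808 and 494 CPM, and Gzmb at 6.75, 23.1, 534 (448 to 631) and 723 (643 to 810) CPM. Gzmd was not found in the spleen and was at 283 and 124 CPM in tumor, at least 1438-fold and 838-fold higher against a floor of 3 counts per spleen library. Gzme was at 0 in the spleen and at 212 and 99.8 CPM, at least 1078-fold and 674-fold higher. Every one of these was high in both tumors and low in both spleens. Fewer cells carried the distal members than Gzmb. Gzmb was found in 22 and 50 tumor T cells (29.7% and 35.7%, against 1.37% and 2.45% of spleen T cells), Gzmc in 8 and 10, Gzmd in 6 and 6, and Gzme in 5 and 6, and 1 cell gave 80.6% of the Gzmc UMIs labelled WT.

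Since the distal granzymes were high together, their promoters are shown, from RefSeq on GRCm38.p6, all on the minus strand of chromosome 14. The CRE (cyclic AMP response element) octamer, TGACGTCA, reads the same on both strands and was found in 1.55% of 32851 promoters of 250 bases. It occurred in Gzmc (chr14:56234683-56234750) and Gzmf (chr14:56211458-56211525), within a stretch that Gzmd (chr14:56132623-56132690) and Gzme (chr14:56120656-56120723) share with 1 substitution in the octamer, C4T and G5A, counted from 1 at its 5′ end on the strand shown. Capitals mark the octamer, which begins in each a different number of bases before the start, 57 in Gzmc, 61 in Gzmd, 62 in Gzme and 82 in Gzmf.
Gzmc: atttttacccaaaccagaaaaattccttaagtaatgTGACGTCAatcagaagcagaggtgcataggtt
Gzmd: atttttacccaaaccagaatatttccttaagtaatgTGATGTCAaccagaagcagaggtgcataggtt
Gzme: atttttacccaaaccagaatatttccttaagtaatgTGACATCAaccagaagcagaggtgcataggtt
Gzmf: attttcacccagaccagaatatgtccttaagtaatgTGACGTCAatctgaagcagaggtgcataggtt
The Gzmb promoter, which held no such octamer, held 1 match to the AP-1 motif TGANTCA on either strand, found in 6.75% of promoters. A match describes the letters only.

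Of the 17 listed cytotoxic genes, 10 of the 10 within limits were higher labelled WT (median 5.23) and 11 of 12 labelled deficient (median 2.34), against 14.8% and 11.9% of all genes. Nkg7 was at 233, 359, 1220 and 779 CPM, Klrd1, which pairs with NKG2 receptors, at 53.4, 76.6, 310 and 239 CPM, and Klrc1 (NKG2A) at 13.8, 25.9, 243 and 175 CPM. All 3 were higher in tumor in both genotypes. Prf1, the pore-forming protein that lets granzymes into a target cell, was at 19, 26.5, 408 (333 to 494) and 53.6 (33.6 to 81.1) CPM. It was called in the libraries labelled WT, with a ratio of 4.35, and fell short of the limits in those labelled deficient, with 0.99.

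Activation receptors were found in larger shares of the tumor T cells. Tnfrsf9, which encodes the costimulatory receptor 4-1BB, was at 25.3, 30.4, 804 (698 to 922) and 842 (756 to 936) CPM and was found in 59.5% and 59.3% of tumor T cells against 5.30% and 5.77% in spleen. Keratin-positive tumor cells also held Tnfrsf9, in 20.7% and 33.7%, at greater depth. Icos was at 41.4, 59.1, 494 (412 to 589) and 752 (671 to 841) CPM and was found in 59.5% and 69.3% of tumor against 11.0% and 14.5% of spleen T cells, with 0.13% and 0.56% of keratin-positive cells. Pdcd1, the gene of PD-1, was at 8.25, 8.79, 235 (180 to 303) and 195 (154 to 242) CPM, in 29.7% and 25.7% of tumor and 2.47% and 2.38% of spleen T cells, and in none of the keratin-positive cells. Both tumors exceeded both spleens for each of these genes, and the intervals of the 2 tumors overlapped for Tnfrsf9 and Pdcd1 but not for Icos, which was higher labelled deficient at less than 2-fold. Of the 3 inhibitory receptors within limits, Pdcd1 and Tigit (26.5, 35, 224 and 212 CPM) were higher in both genotypes and Ctla4 (150, 170, 294 and 183 CPM) was called in neither, with intervals of tumor (231 to 369) and spleen (144 to 156) that did not overlap labelled WT. Among costimulatory receptors 4 of 5 were higher labelled WT, and 5 of 9 labelled deficient, where Cd40lg, Cd226 and Slamf6 were lower. Of the regulatory T cell list 7 of 9 and 6 of 10 were higher, among them Il2ra, the interleukin-2 receptor α chain, at 28.4, 27.9, 165 and 326 CPM.

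**Figure D3:**
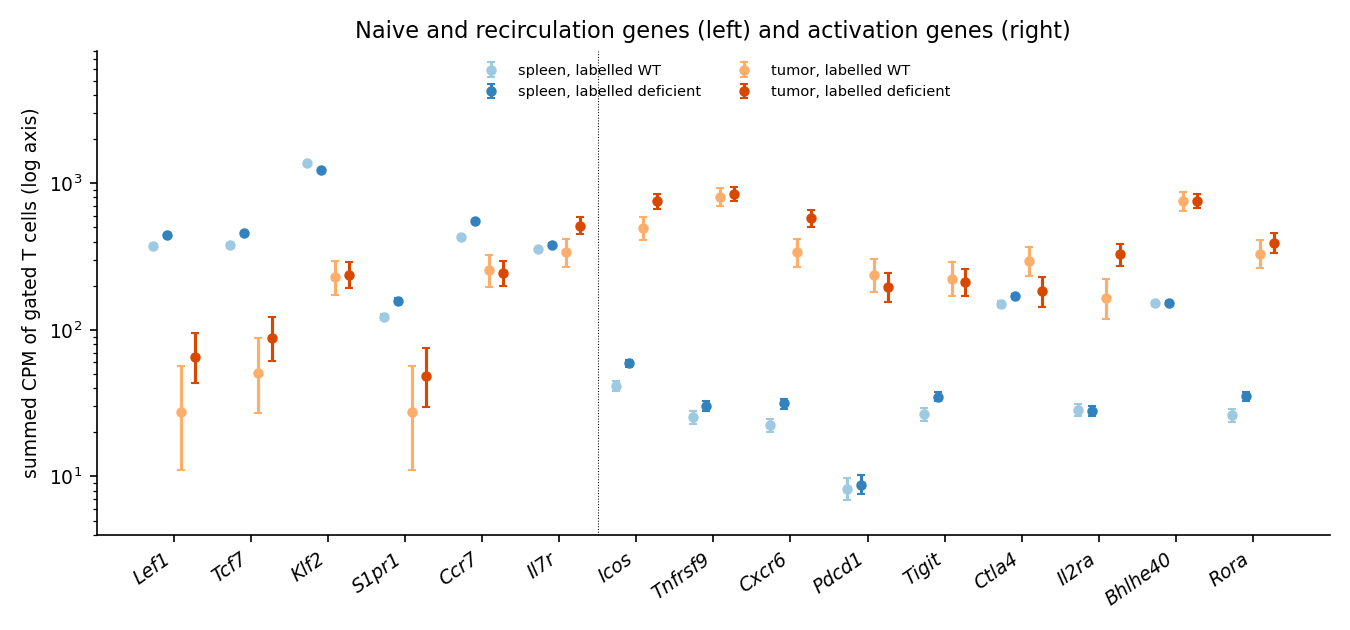
Summed CPM of gated T cells (log axis) in the 4 libraries for genes of naive and recirculating T cells (left of the line) and activation genes (right), with exact 95% Poisson intervals. Lef1, Tcf7, Klf2 and S1pr1 are lower in both tumors than in both spleens, Il7r and Ctla4 differ by less than 2-fold between tissues in both genotypes, and Icos, Tnfrsf9, Cxcr6, Pdcd1 and Tigit are higher in both tumors.

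The genes of naive and recirculating T cells ran the other way. Lef1, a transcription factor of naive T cells, was at 372, 442, 27.5 and 65.7 CPM and was found in 62.4% and 71.6% of spleen but 8.11% and 15.0% of tumor T cells. Tcf7, the partner factor of Lef1, was at 381, 455, 51.0 and 87.6 CPM. Both tumors were below both spleens for both genes. Klf2, which drives the egress receptor S1pr1, was at 1380, 1230, 228 and 236 CPM, and S1pr1 itself at 122, 158, 27.5 and 48.7 CPM. Of the naive and egress list 7 of 10 were lower labelled WT (median -2.69) and 9 of 12 labelled deficient (median -1.96), against 7.89% and 7.05% of all genes, and none was higher. Among Cd44-positive cells the list's median was -0.06 labelled WT and -1.37 labelled deficient, over the listed genes within limits there. Those genes can differ from the ones compared in all gated cells. The value labelled WT therefore does not show whether the difference was absent from Cd44-positive cells. Il7r, the interleukin-7 receptor, was at 354, 381, 337 and 514 CPM and was called in neither genotype.

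By ratio alone, the 8 lowest genes of both genotypes were Ngp, Camp, Ltf, Ly6g, Cd177, Wfdc21, S100a8 and Ifitm6, all known from neutrophils. S100a8 was at 32953, 9812, 235 and 336 CPM, and without the S100-rich cells at 314, 106, 235 and 202 CPM, where the ratio labelled deficient turned to 0.92. Since S100a8 helps define the S100-rich cells, its fall in spleen was set by leaving them out. With those cells left out of all libraries, the 8 lowest were other genes. Dapl1 was then at 211, 188, 15.7 and 0 CPM (with all cells, at least 23.9-fold lower labelled deficient against the floor), Lef1 at 503, 472, 27.5 and 66.4 CPM, and Igfbp4 at 586, 437, 62.8 and 66.4 CPM. Dgka, a kinase that dampens receptor signals, was at 343, 362, 31.4 and 61.5 CPM, and Gimap6, a lymphocyte survival GTPase, at 671, 742, 86.3 and 108 CPM. Rbm38, Rflnb and Rasgrp2 completed the set, with log2 ratios of -3.63 and -2.77, -2.52 and -3.38, and -3.04 and -2.51. In these cells 255 of 1899 genes (13.4%) were higher and 148 (7.79%) lower labelled WT, and 360 of 3034 (11.9%) and 231 (7.61%) labelled deficient, close to the counts in all gated cells. In both genotypes 160 of 1890 (8.47%) were higher and 102 (5.4%) lower.

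**Figure D4:**
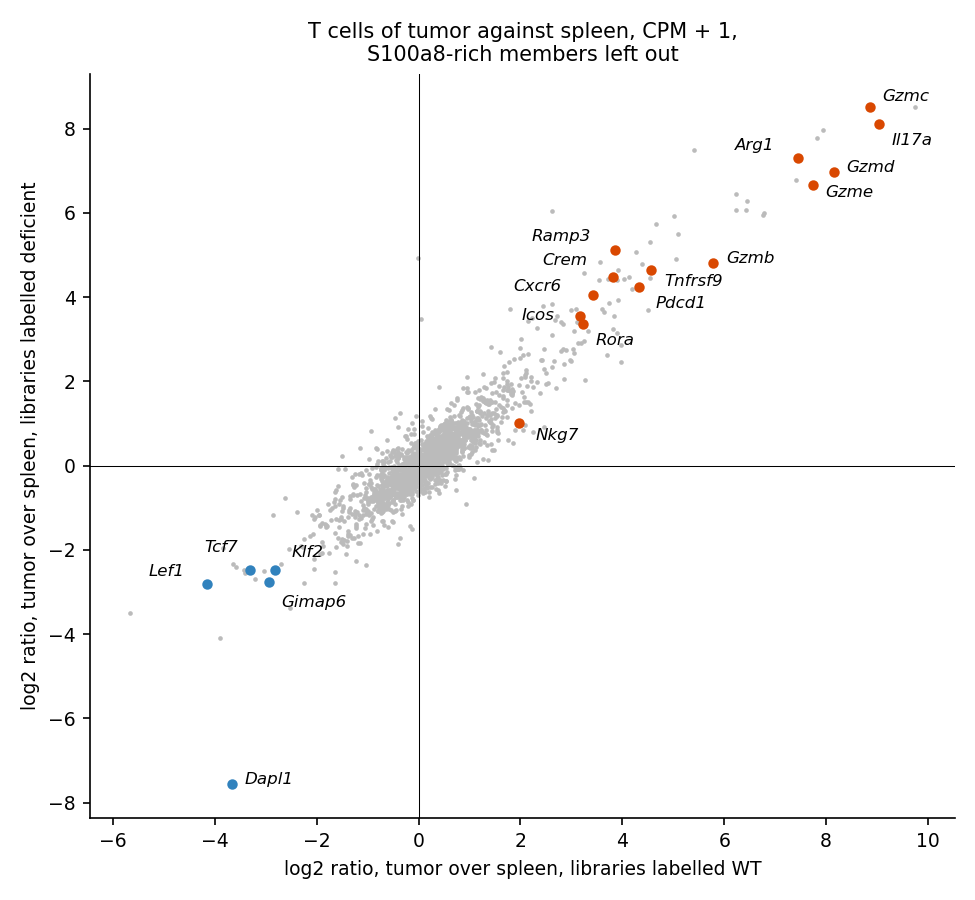
Log2 ratio of tumor to spleen T cells (CPM + 1) in the libraries labelled WT (x axis) and labelled deficient (y axis), each point 1 of the genes within limits in both, without the S100-rich cells. Named higher genes (orange) and lower genes (blue) lie on the same side of 0 in both genotypes. Dapl1 was at 0 in tumor labelled deficient, so its place on the y axis rests on the added 1.

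Tissue homing genes were partly higher. Cxcr6, the receptor for CXCL16 that marks tissue T cells, was at 22.3, 31.4, 337 and 575 CPM, in 43.2% and 50.7% of tumor and 6.03% and 5.79% of spleen T cells. Cd44, the activation adhesion receptor, was at 106, 76.9, 290 and 292 CPM, and Rgs1, which damps chemokine receptor signals, at 341, 439, 1071 and 1332 CPM. These 3 genes were higher in both tumors, and over the list 5 of 10 were higher and 1 lower labelled WT, and 6 of 12 and 1 labelled deficient. The list's median labelled WT was 0.67. In the cells with no UMI of other cell types' markers it was -0.10, over the listed genes within limits there. Rora was at 26.1, 35.2, 330 and 390 CPM, and Bhlhe40, a factor of cytokine-making T cells, at 152, 153, 753 and 757 CPM. Of the listed activation factors 5 of 7 were higher and 1 lower labelled WT, and 4 of 13 and 1 labelled deficient.

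Ramp3, which with a partner forms an adrenomedullin receptor, was at 8.71, 11.0, 184 and 441 CPM, and Crem, a cyclic AMP response factor, at 11.9, 14.4, 208 and 360 CPM. Both were higher in tumor, as were Arg1 (0, 0.10, 173 and 173 CPM), Sdc4 (4.58, 2.67, 153 and 209 CPM) and Cdkn1a (12.6, 11.8, 204 and 285 CPM). For the last 3, the other cells of the tumors held more than the T cells, with Arg1 at 201 and 280 CPM, Sdc4 at 255 and 356 CPM and Cdkn1a at 243 and 305 CPM, and the part of free RNA in them was not tested.

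Glycolysis and hypoxia genes were higher for 8 of 12 labelled WT and 6 of 16 labelled deficient, with none lower. Of all genes, 14.8% and 11.9% were higher. Tpi1, a glycolytic isomerase, was at 78.7, 53.2, 483 and 543 CPM, Ldha, which makes lactate, at 549, 502, 1499 and 1266 CPM, and Hilpda, a hypoxia-induced lipid droplet protein, at 28.2, 32.1, 275 and 441 CPM. Each was higher in both tumors. Of the type I interferon list 7 of 9 were higher and 1 lower labelled WT, and 7 of 12 higher labelled deficient, with Isg15, a ubiquitin-like modifier, at 77.6, 69.5, 620 and 485 CPM. The interferon-γ list had 1 of 8 higher labelled WT, and 7 of 15 labelled deficient. Cytokines and chemokines were higher for 5 of 8 and lower for 1 labelled WT, and higher for 8 of 14 labelled deficient, with Tgfb1 at 123, 149, 373 and 338 CPM and the chemokine Ccl4 at 47.5, 146, 392 and 538 CPM.

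The receptor signalling list, which holds genes of T cells in general, had 2 of 14 lower labelled WT and 3 of 16 labelled deficient, and none higher, and without the S100-rich cells 5 of 14 were lower labelled WT. Lck, the proximal receptor kinase, was at 407, 547, 267 and 263 CPM, and Thy1 at 415, 485, 557 and 480 CPM. Early response genes were lower for 5 of 14 and higher for 2 labelled WT, and lower for 1 of 14 labelled deficient, Junb, an AP-1 subunit, in both, at 3882, 4482, 1001 and 1259 CPM. In the cell cycle list 2 of 8 and 4 of 12 were higher, with a median labelled deficient of 0.52. In cells drawn to 1000 UMIs that median was -0.60, over the listed genes within limits there. The proliferation marker Mki67 was found in 4.95% and 3.48% of spleen and 18.9% and 15.7% of tumor T cells. The heat shock list had 1 of 7 and 2 of 8 higher (0 of 8 labelled deficient without the S100-rich cells), the NF-κB list 0 of 6 and 4 of 11, and the MHC class I list 0 of 9 in either genotype. Of all genes, 14.8% and 11.9% were higher and 7.89% and 7.05% lower, so the heat shock counts labelled WT lay near the share of all genes. In the γδ list no gene was within limits labelled WT and 2 of 2, Trdv4 and Cd163l1, were higher labelled deficient.

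Leaving out the S100-rich cells changed several of these counts in the libraries labelled WT. Type I interferon genes were then 6 of 9 higher and 0 lower, interferon-γ genes 0 of 11 higher and 1 lower, and NF-κB genes 0 of 6 higher and 1 lower. Cytotoxic genes were 9 of 10 higher, listed activation factors 4 of 7 higher, costimulatory receptors 3 of 5 higher and 1 lower, and regulatory T cell genes 6 of 10 higher. Homing genes had 2 of 10 lower and naive and egress genes 9 of 11 lower. In the libraries labelled deficient, homing genes were 5 of 12 higher and activation factors and early response genes had 2 lower each.

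The lipid mediator list bears on the labelled genotype, since cysteinyl leukotrienes are made through ALOX5 and its partner protein. It had 2 of 4 lower labelled WT and 1 of 5 higher labelled deficient. The 2 lower were Alox5ap, the partner of ALOX5 (857, 170, 118 and 114 CPM), and Lta4h, which makes leukotriene B4 (122, 71.6, 47.1 and 56.0 CPM). Without the S100-rich cells Alox5ap was at 71.9, 39.9, 118 and 111 CPM, so its direction turned, with ratios of 0.70 and 1.45, and none of the 3 listed genes within limits labelled WT was lower. Labelled deficient, 3 of 5 listed genes were then 2-fold higher or more, but only 1 was called. Alox5ap was not called, since it fell short of the guard against free RNA, and the part of free RNA in it was not tested. Ltb4r1, the receptor of leukotriene B4, was at 130, 26.6, 15.7 (4 cells) and 136 (28 cells) CPM, and at 5.0, 2.47, 15.7 and 135 CPM without those cells. It was the gene higher in tumor labelled deficient, against 10.8 and 29.3 CPM in the other tumor cells. Cysltr2, the other cysteinyl leukotriene receptor, had 3 UMIs in each tumor library and no ratio is given.

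Since the mix of subsets differed between tissues, levels were repeated within the Cd8-positive and the Foxp3-positive cells. In the Cd8-positive cells (1070, 1465, 20 and 25), Gzmb was at 7.91, 23.1, 1088 and 590 CPM, Pdcd1 at 4.26, 4.68, 498 and 497 CPM, and Tnfrsf9 at 12, 21.0, 915 and 914 CPM. The tumor stood apart from the spleen in the same direction as in all T cells. Lef1 was at 486, 471, 10.2 and 23.1 CPM, Lag3, an inhibitory receptor, at 9.73, 13.0, 183 and 150 CPM, and Nkg7 at 550, 633, 2451 and 1885 CPM in these cells. Il17a was not found in any Cd8-positive cell. In the Foxp3-positive cells (281, 349, 9 and 8), Tnfrsf9 was found in 8 of 9 and 8 of 8 tumor cells and was at 156, 128, 1325 and 2953 CPM, and Icos at 150, 184, 736 and 1477 CPM. Ccr8, a chemokine receptor of tumor regulatory T cells, was at 48.3, 48.7, 177 (6 UMIs, 64.8 to 385) and 345 CPM (7 UMIs, 139 to 710), and Ctla4 at 847, 911, 589 and 738 CPM. Tnfrsf9, Icos and Ccr8 were higher in both tumors and Ctla4 was not. Tcf7, Lef1 and Cxcr6 were found in neither the 9 nor the 8 tumor cells.

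Between the tumor libraries, 54 of 1988 genes (2.72%) were higher labelled deficient and 29 (1.46%) lower. The median of all genes was -0.01. In spleen T cells 50 of 11411 (0.438%) were higher and 265 (2.32%) lower, or 29 (0.269%) and 27 (0.25%) of 10795 without the S100-rich cells. The 8 highest included Csf2, Gzma, Ccr2 and Ccl5, and the 8 lowest Gzmf, Prf1 and Cd8a.

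Csf2, the gene of the myeloid growth factor GM-CSF, was at 0.655 and 1.58 CPM in spleen, at 0 in tumor labelled WT and at 207 CPM (165 to 256) in tumor labelled deficient, with 85 UMIs in 11 cells, 30.6% of them in 1. It was at least 17.6-fold higher labelled deficient against a floor of 3 counts. In keratin-positive tumor cells Csf2 was found in 6.66% and 11.1%, and all other tumor cells held 10.0 and 21.9 CPM. Gzma, granzyme A, was at 33.4, 119, 11.8 (2.43 to 34.4, 3 UMIs in 1 cell) and 292 CPM (242 to 349, 120 UMIs in 10 cells), and Ccl5, a chemokine of memory and killer cells, at 603, 921, 283 and 1159 CPM. Ccr2, a chemokine receptor for entry into inflamed tissue, was at 25.5, 37.6, 35.3 (16.2 to 67.0, 5 cells) and 239 CPM (194 to 291, 51 cells). Each of these was higher in tumor labelled deficient than in the other tumor, and the levels there also exceeded those of both spleens. With the library labelled deficient first, Irak2, an adaptor kinase of the interleukin-1 receptor family, was at 151 against 27.5 CPM, Il18r1, the interleukin-18 receptor, at 134 against 31.4 CPM, Smox, spermine oxidase, at 387 against 90.3 CPM, and Serpinb1a, an inhibitor of neutrophil proteases, at 270 against 51.0 CPM. Of the cytokine list 3 of 12 were higher, Csf2, Ccl5 and Areg, the last an epidermal growth factor receptor ligand at 387 against 114 CPM. Areg was found in 68.5% and 70.4% of the keratin-positive cells, which were deeper. All other tumor cells held more Areg than the T cells, 396 CPM labelled WT and 485 CPM labelled deficient. The part of free RNA in it was not tested.

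Gzmf was at 0, 0.05, 1417 (1274 to 1570) and 85.2 CPM (59.4 to 119), Prf1 as given above at 408 (104 UMIs in 14 cells) and 53.6 CPM (22 UMIs in 13 cells) in the tumors, and Cd8a at 345 (277 to 425) and 92.5 (65.5 to 127) CPM. All 3 were lower labelled deficient, by -4.04, -2.91 and -1.89 on the log2 scale. Without each library's highest cell Gzmf was at 845 and 46.9 CPM, and the 3 ratios were -4.14, -2.91 and -1.99. Of the 14 cytotoxic genes within limits 4 were lower (Gzmf, Prf1, Gzmd and Gzme) and 1 higher (Gzma), with a median of -0.53. Of all genes, 1.46% were lower and 2.72% higher. In the Cd8-positive cells, which were 20 and 25, Prf1 was at 997 and 81.0 CPM (11 and 5 cells), Gzmf at 3662 and 405 CPM (7 and 4 cells) and Ccl5 at 234 and 2602 CPM. The same direction therefore held among Cd8-positive cells. With the library labelled WT first, Nrn1, which encodes neuritin and is known from regulatory and anergic T cells, was at 137 against 21.9 CPM, Rsad2, the antiviral enzyme viperin, at 330 against 65.7 CPM, and Ms4a4a at 145 against 48.7 CPM. Without each library's highest cell Rsad2 was at 202 against 60.7 CPM. Saa3, an acute phase protein, was at 255 against 56.0 CPM, but 93.8% of the UMIs labelled WT came from 1 cell and without each library's highest cell the ratio turned to 0.48. H2-Q7, a class I molecule, was at 172, 47.2, 275 and 82.8 CPM and so was lower labelled deficient in both tissues.

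**Figure D5:**
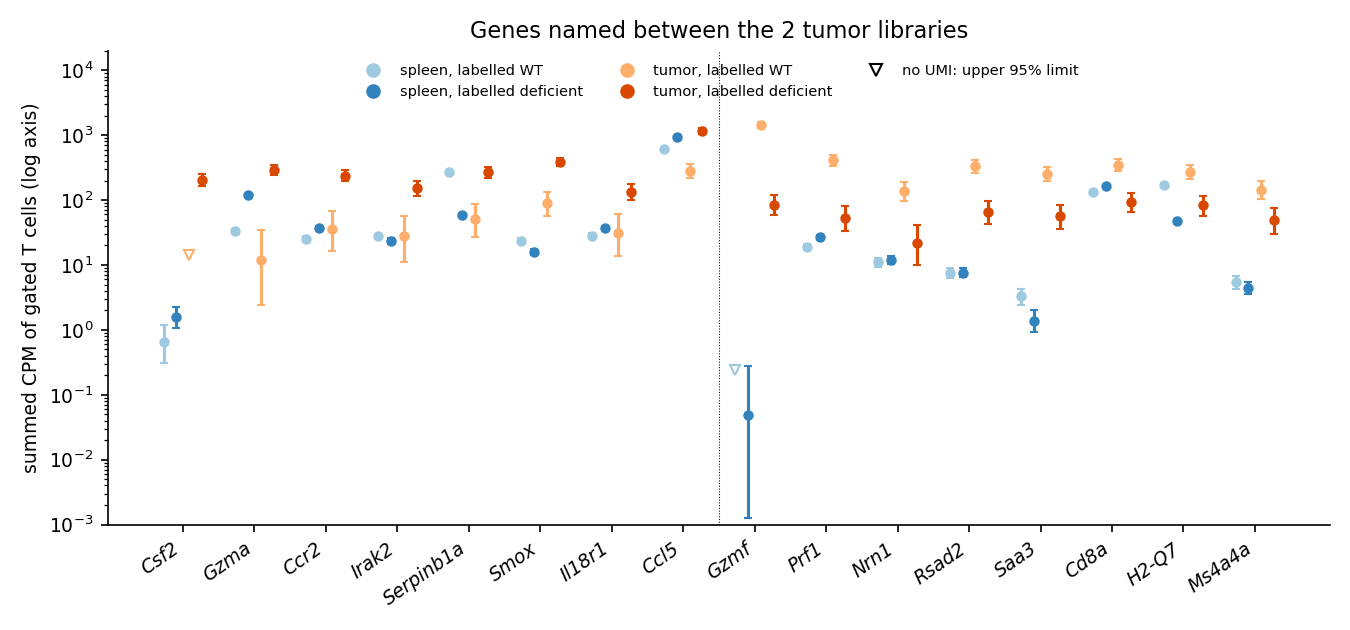
Summed CPM of gated T cells (log axis) for the 8 genes furthest higher (left of the line) and the 8 furthest lower (right) in tumor labelled deficient against tumor labelled WT, with exact 95% Poisson intervals and the spleen libraries beside them. Csf2 is at 0 in tumor labelled WT, and H2-Q7 is lower labelled deficient in both tissues.

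Interferon-γ response genes were higher labelled deficient for 5 of 14 and lower for none, with a median of 0.62. Of all genes, 2.72% were higher and 1.46% lower, and the other list counts between the tumors are read against these shares too. In the cells with no UMI of other cell types' markers the median was -0.14, over the listed genes within limits there. The 5 higher genes were Gbp2 (161 and 334 CPM), Gbp4 (58.9 and 151), Gbp6 (54.9 and 134), Irf1, the induced transcription factor (106 and 270), and Cxcl10 (110 and 275), the GBP proteins being guanylate-binding defence GTPases. Type I interferon genes had 0 of 10 higher and 1 lower (Rsad2), with a median of -0.38. In the cells with a receptor constant UMI the median was 0.60, over the listed genes within limits there. Homing genes had 3 of 11 higher (Ccr2, Itgb7 and Cd69, the early activation receptor, at 271 and 606 CPM) and 1 lower (Itga4). The early response list had 1 of 14 higher (Zfp36) and 1 lower (Atf3), the NF-κB list 1 of 9 higher (Icam1), the cell cycle list 1 of 11 lower (Ube2c), the glycolysis list 1 of 16 lower (Vegfa, with intervals that overlap) and the γδ list 1 of 1 higher (Trdv4). No gene was called in the receptor signalling (14), naive (5), inhibitory (3), costimulatory (6), regulatory T cell (10), MHC class I (9), heat shock (9) and lipid mediator (3) lists. The 3 lipid mediator genes did not include Ltb4r1, which was below the limits on UMIs here and was higher labelled deficient at the levels given above. Il17a itself, at 526 and 784 CPM, was not called between the tumors, with a ratio of 0.58. That ratio had no stable direction: 1 cell gave 66.4% of the UMIs labelled WT, and without each library's highest cell the levels were 178 and 528 CPM, a ratio of 1.56, past 2-fold. In the cells with no Trdc UMI it was -0.997, and in those with a receptor constant UMI 3.86. Calca, Il17f and Il22 were below the limits on UMIs between the tumors. Calca was at 0 and 114 CPM (47 UMIs in 15 cells), Il17f at 11.8 and 114 CPM (47 UMIs in 6 cells), and Il22 at 0 and 105 CPM (43 UMIs in 5 cells). All 3 were called higher in tumor than in spleen labelled deficient.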

How the data were processed

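Single-cell libraries of tumor and spleen from EMT6-bearing mice were analysed, 1 per tissue and genotype. The deposited matrices hold whole-number UMI counts per gene and barcode, with Cell Ranger 6.1.0 stated per the file headers. Version 6.0.0 of that tool, with mm10, stands in the submitters' processing notes. A 5′ kit and a 3′ kit both appear in the labels' protocols, so it is unclear which transcript end was sequenced. All libraries shared 32285 genes, and 19 antibody features were left out. Tumor libraries held 73393630 and 54569639 UMIs in 9740 and 6874 barcodes.

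Gated cells were summed per library (15267508 and 20257210 UMIs in spleen, 254845 and 410727 in tumor) and expressed as CPM, and ratios were taken on log2(CPM + 1). The members and gene lists were chosen with earlier results of these data known, so no list count is independent support. Named genes were the 12 highest and 8 lowest between tissues, by the smaller ratio of the 2 genotypes among genes called in both, and the 8 highest and 8 lowest called between the tumors, all with intervals that did not overlap. The gate's own genes, receptor and immunoglobulin segments, ribosomal, mitochondrial and haemoglobin genes, and sex-linked or provisional ones were not named by that rule. Up to 8 members of each gene list, those with the most UMIs, subset markers and markers of other cell types were named too. Co-detected genes in Il17a-positive and γδ cells, and Il22, Il17f, Calca and Ltb4r1, were singled out after their values were seen. One listed gene is not reported here. Doublets were scored in the manner of Scrublet, marking the highest 0.8% per 1000 barcodes, and not removed. The marks fell on 4 and 2 tumor members. On simulated data with Poisson error only and without the guard, 100% of 4-fold changes were recovered in each comparison. Of 3-fold changes, 99% and 97% were recovered between tissues (labelled WT, then deficient) and 94% between the tumors. Of unchanged genes, 0.0618%, 0.0347% and 0.388% were called. No simulated gene had most of its UMIs placed in 1 cell, so such genes are not covered. Positions are those of the mm10 annotation by gene ID, granzyme transcripts are from GENCODE, and promoters are from RefSeq. Python 3.11.15, numpy 2.4.6, scipy 1.17.1, pandas 2.3.3, scanpy 1.11.5 and matplotlib 3.10.9 were used.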

Additional observations from a re-analysis of the deposited data

Results flagged for a closer look

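For 2 genes called in both genotypes the tumor to spleen ratio had opposite signs in the 2 genotypes, and the difference was not tested. Serpinb1a was at -2.40 labelled WT and 2.15 labelled deficient, and Cstdc4 at -5.08 and 1.26. Without the S100-rich spleen cells Serpinb1a was at 2.61 and 6.04, the same direction in both, and Cstdc4 at -0.02 and 4.93.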

How the results depend on the processing

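Without replicate libraries, the limits are those of counting: the tumor sums hold 254845 and 410727 UMIs, and a gene at 0 in tumor has a limit of 11.8 or 7.30 CPM. No paired analysis was possible because each group had 1 library and the labels give no replicate numbers. For values that moved, the cause was not tested, except that smaller gates and higher limits leave fewer genes to compare.

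Counts below are given for tumor against spleen labelled WT, the same labelled deficient, and tumor labelled deficient against WT, for higher genes (272, 363 and 54 as reported) and then lower genes (145, 215 and 29). With 10 expected UMIs they were 568, 611 and 160, then 286, 402 and 124, and with 40 expected UMIs 116, 203 and 22, then 72, 113 and 10. In cells drawn to 1000 UMIs they were 45, 129 and 7, then 20, 77 and 4. Members with no UMI of other cell types' markers gave 68, 208 and 17, then 32, 107 and 7. Foxp3-positive members gave 28, 17 and 8, then 17, 12 and 0. Between tissues alone, Cd8-positive members gave 101 and 93 higher and 60 and 45 lower. Median-ratio scaling gave 140 higher labelled WT and 290 and 378 lower. Cd44-positive members labelled deficient gave 204 higher and 111 lower. Members with a receptor constant UMI labelled WT gave 142 higher and 95 lower. Chosen after seeing the data, a gate without the C1qa and keratin terms gave 812 and 985 higher and 411, 746 and 73 lower, and a guard of 2 gave 89 and 127 higher and 31, 69 and 16 lower.

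The share of tumor cells in the gate, labelled WT and deficient, was 1.22% and 3.85% without the C1qa and keratin terms, 0.419% and 1.36% with a receptor constant UMI required, and 0.349% and 1.12% with no UMI of other cell types' markers. It was 2.65% labelled deficient with 1000 or more UMIs per cell. In cells drawn to 1000 UMIs, Cd4 was at 12.5% in both spleens and 5.51% in tumor labelled deficient, Cd8 at 24.1% and 25.1% in the spleens, and Foxp3 at 5.49% and 4.21% in the spleens and 1.89% in tumor labelled WT. With a receptor constant UMI, spleen labelled WT had Cd4 at 31.6%, Cd8 at 34.3% and Foxp3 at 9.29%, and tumor labelled WT had Cd4 at 5.56% and Cd8 at 41.7%. With no UMI of other cell types' markers, Cd4 was at 29.3% and 26.7% in spleen and tumor labelled WT. In spleen labelled WT, Cd4 was at 29.9% and Cd8 at 34.0% without S100-rich cells, and Cd8 at 33.1% with 3 or more Cd3 UMIs.

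Directions of called genes, and of list medians at 2-fold or more, turned in 4 cases of the alternatives run: S100a8 between tissues labelled deficient without S100-rich cells (0.92), Saa3 between tumors without each library's highest cell (0.48), and the cytokine list median labelled WT in cells drawn to 1000 UMIs (-0.70) and in Cd8-positive members (-0.23). S100a8 helps define the S100-rich cells, so its fall in spleen was set by that filter. Each list median covers the listed genes within limits under that alternative. The genes can thus differ, and a changed sign need not be that of a fixed set of genes. List medians under 2-fold were less stable, and 54 of 655 such values had the opposite sign. Examples are the interferon-γ list labelled deficient, from 0.87 to -0.23 in Cd8-positive members, and the lipid mediator list labelled WT, from -0.53 to 0.70 without S100-rich cells. Alox5ap and Serpinb1a labelled WT, given above, turned there too.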
